A study of Arabidopsis thaliana with 12 samples.

Results

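AT1G17160 and AT2G35390 of Arabidopsis thaliana encode a ribokinase of the pfkB family and a phosphoribosyl pyrophosphate (PRPP) synthetase. They were chosen by name from the array's 3439 probes, as 2 of the 692 probes that carry exactly 1 gene, because their enzymes stand next to each other in metabolism and because both probes were brighter in the dark. Total RNA came from wild-type plants of the ecotype Columbia 0, in 6 samples of plants adapted to light and in 6 of such plants after 1 h in darkness. All 12 samples share genotype and ecotype, and the labels give neither age nor tissue, nor whether samples came from separate plants. Each sample was hybridised to a 1-channel expression array, whose deposited intensities run on a linear scale from 0 to 100.

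Ribokinase transfers a phosphate from ATP to free ribose, which plants set free when they break down nucleosides, and gives ribose 5-phosphate. PRPP synthetase then moves a pyrophosphate group from ATP onto ribose 5-phosphate. The product, PRPP, is the activated ribose that purine, pyrimidine, histidine, tryptophan and NAD synthesis use, and to which salvage enzymes attach free bases. Ribose 5-phosphate also comes from the pentose phosphate pathway and, in green tissue under light, from the Calvin cycle. In Arabidopsis the ribokinase works in the chloroplast.

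Samples fell into pairs by number, 1 with 2, 3 with 4 and 5 with 6. On the log2 scale all 12 were closest to their partner among the samples of their own group, so partners were averaged and means rest on 3 replicates per group. The background limit of a sample is the 95th percentile of its values at probes that read 0 in the partner. It was higher in light-adapted samples 3 to 6, at 0.0850, 0.0934, 0.136 and 0.194 on the normalised scale, than in the other 8 samples, where it ran from 0.0289 to 0.0501. The light-harvesting gene LHB1B2, the only one of 25 green-tissue markers with a probe of its own, was bright, at 45.8 ± 3.24 (SD, n = 3) before and 37.3 ± 1.20 after 1 h of darkness on the normalised scale. As deposited its means stood in the other order, at 39.7 ± 10.6 and 43.2 ± 7.44, so no direction is given for it. Green-tissue markers on probes shared by several genes were far dimmer. A probe of 3 LHCB4 genes read 1.49 ± 0.0830 and 1.53 ± 0.159. A probe of RCA and AT1G73110 read 0.426 ± 0.0603 and 0.604 ± 0.103, and a second probe of these genes exceeded the limit in no sample. Of the 6 root and 8 seed markers none had a probe of its own, so these tissues could not be checked.

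The ribokinase probe was brighter in every dark sample than in any light-adapted one. The normalised intensity of AT1G17160 had a lowest value of 0.289, a median of 0.322 and a highest value of 0.541 over the 6 light-adapted samples. Over the 6 dark samples it had a lowest value of 0.728, a median of 1.04 and a highest value of 1.30. The groups did not overlap, and the signal lay above the background limit in all 12 samples. Averaged replicates gave 0.369 ± 0.107 (SD, n = 3) for light-adapted and 1.01 ± 0.210 for dark plants, a difference of 1.46 on the log2 scale (SE 0.27) or 2.76-fold. The values also did not overlap as deposited, before the normalization applied here, with 0.315 to 0.500 in the light and 0.804 to 1.07 in the dark.

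The PRPP synthetase probe was dim in the light and plainly measured in the dark. The normalised intensity of AT2G35390 had a lowest value of 0.0338, a median of 0.0624 and a highest value of 0.116 in the light-adapted samples. In the dark samples the lowest value was 0.250, the median 0.334 and the highest 0.394, again with no overlap between the groups. Means of averaged replicates were 0.0704 ± 0.0250 (SD, n = 3) and 0.327 ± 0.0620, and the log2 difference was 2.33 (SE 0.33), or 5.02-fold. As deposited the probe read 0.0336 to 0.137 in the light and 0.225 to 0.319 in the dark.

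The size of the AT2G35390 difference was bounded by background in the light. Its signal lay above the limit in all 6 dark samples but in only 2 of 6 light-adapted ones, samples 1 and 2. In these samples it was measured on both sides, and dark samples 1 and 2 were 4.24-fold brighter than light-adapted samples 1 and 2. With every value below a limit raised to it, which touched the other 4 light-adapted samples, the log2 difference became 1.56 (SE 0.40), or 2.94-fold. The ribokinase value did not move under that change, since none of its 12 values lay below a limit.

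**Figure D1:**
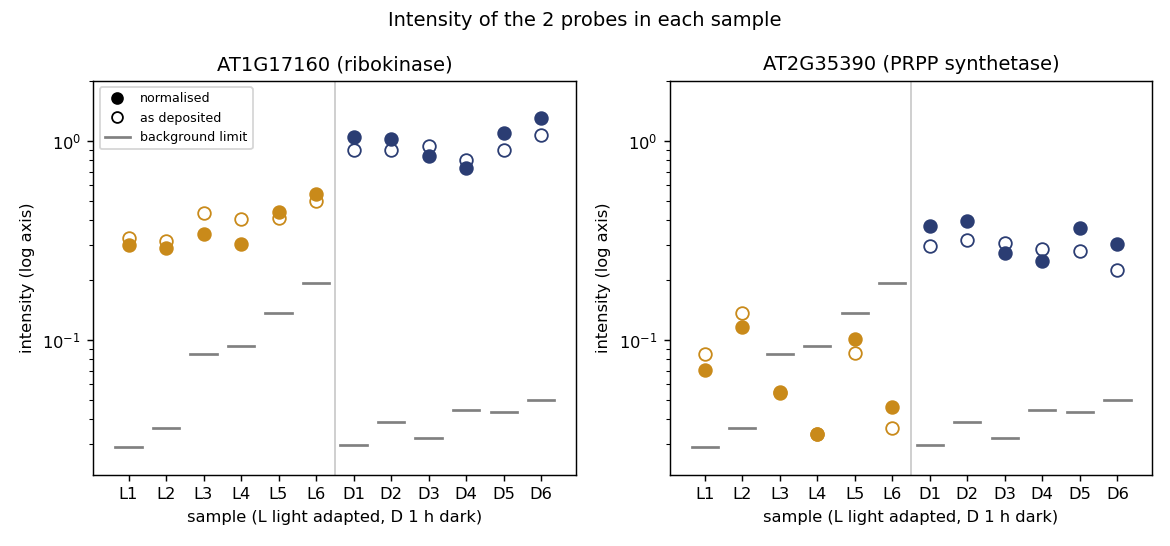
Intensity (log axis) of the ribokinase probe (left) and the PRPP synthetase probe (right) in light-adapted samples L1 to L6 and dark samples D1 to D6; filled points are normalised values, open points values as deposited, and grey bars the background limit of each sample on the normalised scale. All dark points lie above all light points in both panels, and light-adapted samples 3 to 6 of AT2G35390 lie under their limits.

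Each of the 3 sample pairs showed the higher dark level for both genes, which follows from groups that do not overlap and adds no support. For AT1G17160 the dark pair was 3.53-fold brighter for samples 1 and 2, 2.43-fold for samples 3 and 4, and 2.45-fold for samples 5 and 6. The third pair stood highest in both groups, at 0.491 in the light and 1.20 in the dark. For AT2G35390 the fold was 4.24 for samples 1 and 2. For the other pairs the light-adapted signal lay under its limit, so only bounds can be given, at least 2.93-fold for samples 3 and 4 and at least 2.05-fold for samples 5 and 6. Compared number by number, log2 differences of the ribokinase ran from 1.26 to 1.83.

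The 2 probes differed in where their spread lay. Between pair means, AT1G17160 had an SD of 0.39 in the light and 0.31 in the dark on the log2 scale, and AT2G35390 had 0.55 and 0.28. The corresponding median SDs over all 3439 probes were 0.53 and 0.32. Within pairs the SD of AT2G35390 was 0.62 in the light, where most of its values lay under the limit, and 0.13 in the dark. For AT1G17160 these values were 0.14 and 0.13. The light-adapted partners of AT2G35390 thus differed from each other more than the dark partners did, by up to 1.15 on the log2 scale for samples 5 and 6.

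Both differences belong to the upper part of the array's range, as a description of genes chosen for being higher. Among all 3439 probes AT2G35390 had the rank 72 by rise in the dark and AT1G17160 the rank 240. Among the 692 probes with 1 gene the ranks were 17 and 54. The exact ranks depend on the light values near background, and with all values raised to the limits they were 85 and 99 of 3439, and 19 and 22 of 692. All 6 dark samples lay above all 6 light-adapted samples for 8.81% of probes, and nothing is read from the place of the 2 genes among them because they were picked on this contrast. For the same reason no test is given for them. No other probe carries either locus.

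**Figure D2:**
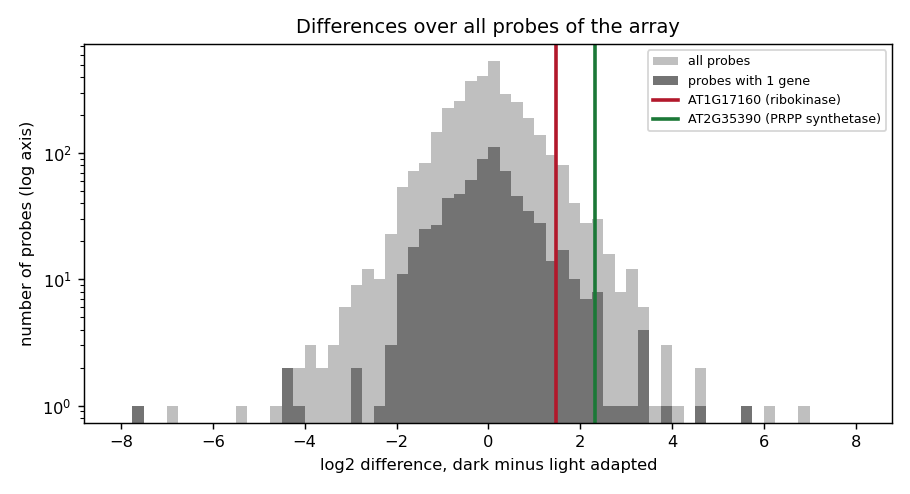
Number of probes (log axis) by log2 difference, dark minus light adapted, for all 3439 probes (light grey) and the 692 with 1 gene (dark grey). Vertical lines mark the ribokinase at 1.46 and the PRPP synthetase at 2.33, both to the right of most probes.

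Around these 2 steps the array covered the pathway thinly. Of 103 other genes of ribose and nucleotide metabolism on the lists, 6 had a probe of their own, and only 3 of these were above the background limit in at least 6 of 12 samples. None of the 6 passed in limma at an adjusted p under 0.05, where 7.62% of all probes did (0 with pairs as a replicate block). An unadjusted p under 0.05 was found for 2 of the 6, and for 24.0% of all probes. Their median log2 difference was 0.09, against 0 for all probes. Pyrimidine synthesis, ribonucleotide reductase and PRPP use in histidine, tryptophan and NAD synthesis had no such probe, and neither had the other pfkB kinases.

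A second PRPP synthetase gene, AT2G44530, had a higher value in the dark that narrowly missed the threshold. Its normalised intensity ran from 0.0779 to 0.180 in the light and from 0.189 to 0.305 in the dark, so the groups lay apart by a small margin. As deposited they overlapped, with 0.0926 to 0.176 in the light and 0.161 to 0.264 in the dark. Averaged values were 0.119 ± 0.0271 (SD, n = 3) and 0.255 ± 0.0424, a log2 difference of 1.14 (SE 0.22, limma adjusted p = 0.0531). Its adjusted p in limma was 0.149 with pairs as a replicate block and 0.184 with values raised to the background limit. Without averaging it was 0.00187, but that fit counts partners as separate replicates. All 6 dark samples and 5 of the 6 light-adapted ones exceeded the limit. The other 3 PRPP synthetase genes of the list had no probe of their own.

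Upstream of ribose 5-phosphate, AT1G50510 went the other way in value. It encodes the glycosylase that splits pseudouridine monophosphate into uracil and ribose 5-phosphate. Its intensity ran from 0.204 to 0.880 in the light and from 0.127 to 0.206 in the dark, so that the groups overlapped slightly. As deposited they did not, with 0.265 to 0.811 and 0.103 to 0.217. The log2 difference was -1.26 (SE 0.46) and did not pass in limma (adjusted p = 0.193). It did without averaging (adjusted p = 0.0176 in limma), but that fit counts partners as separate replicates. Light-adapted samples 5 and 6 were the brightest, and when they were left out the difference was -0.80.

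The remaining genes gave little signal. AT1G31220, the glycinamide ribonucleotide transformylase of purine synthesis, read 0.0616 ± 0.0313 (SD, n = 3) and 0.0674 ± 0.0200 in light-adapted and dark plants (limma adjusted p = 0.934). UPP, the uracil phosphoribosyltransferase that uses PRPP in pyrimidine salvage, stayed under the limit in all 12 samples. So did AT5G44520, of the ribose 5-phosphate isomerase family, and the transaldolase gene AT1G12230, which read 0 throughout. Their values therefore say nothing about a change.

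Probes that carry several genes added 7 measurements of list genes. None passed in limma (adjusted p from 0.118 to 0.934). An unadjusted p under 0.05 was found for 2 of the 7, against the 24.0% of all probes given above. Log2 differences were positive for 5 and negative for 2. A probe shared by AT1G36280 and AT4G18440, both adenylosuccinate lyases of purine synthesis, ran from 0.166 to 0.397 in the light and from 0.398 to 0.599 in the dark, a log2 difference of 0.96 (adjusted p = 0.118 in limma). Its deposited values overlapped, with 0.153 to 0.417 in the light and 0.312 to 0.491 in the dark. A second probe with the same 2 genes had overlapping groups and a log2 difference of 0.31 (adjusted p = 0.934 in limma), and 1 of its 6 light-adapted values exceeded the limit. A probe shared by PYRB, the aspartate transcarbamoylase of pyrimidine synthesis, and OTC had a log2 difference of -1.35 (adjusted p = 0.119 in limma). Only 2 light-adapted and 2 dark samples exceeded the limit for it. Another probe, which lists AT1G75335 besides these genes, had the opposite sign, with 1.11 (adjusted p = 0.684 in limma). It was above the limit in 1 light-adapted and 4 dark samples, so both values lie near background. A probe shared by the fructokinase genes AT1G66430 and AT5G51830, which like ribokinase are pfkB kinases, had a log2 difference of -1.47 (adjusted p = 0.233 in limma). Its groups overlapped, with 0.0953 to 0.455 in the light and 0.0475 to 0.110 in the dark. It exceeded the limit in 4 light-adapted and 6 dark samples. Purine synthesis probes shared by AT1G31220, AT5G47435 and AT4G17360, and by AT2G37690 and AT2G05140, exceeded it in all 12 samples. Their log2 differences were 0.10 and 0.29 (adjusted p = 0.934 and 0.831 in limma).

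**Figure D3:**
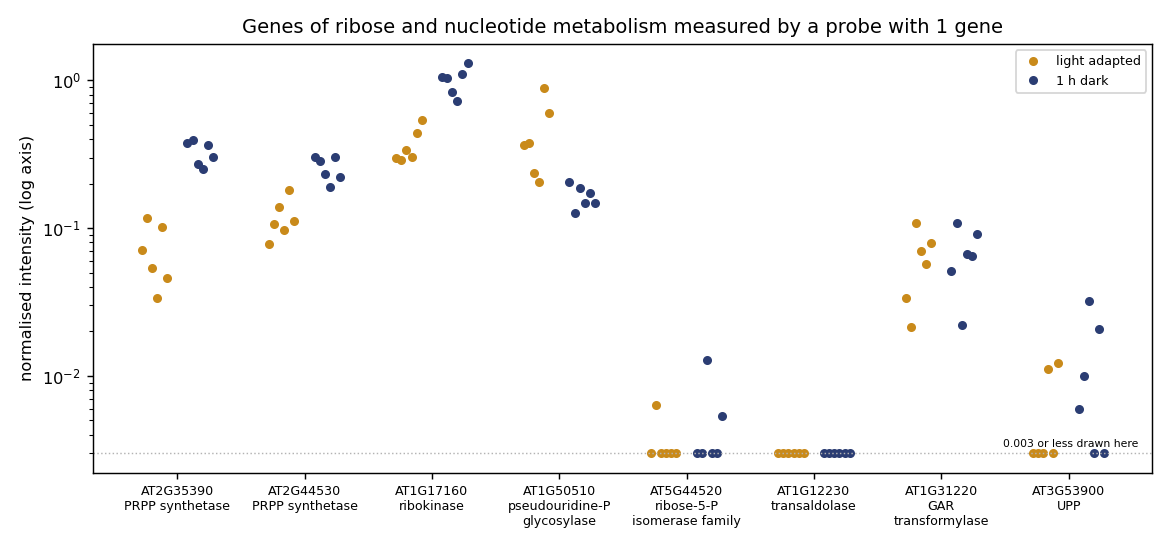
Normalised intensity (log axis) of the 8 genes of ribose and nucleotide metabolism that have a probe of their own, with 6 light-adapted and 6 dark samples each. On this scale the groups lie apart for AT2G35390, AT1G17160 and, narrowly, AT2G44530, and they overlap or coincide for the other 5; levels of different probes are not comparable.

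The profiles of the 2 genes over the 12 samples were alike in the step between light and dark, the contrast on which both were chosen. Pearson's r of their log2 values was 0.86 over 12 samples, which fall into 2 groups by design and into sample pairs, so r here mostly measures that step. Each was only at rank 23 of the 429 comparable probes in likeness to the other. After each group's mean was subtracted, r was 0.06 over the 12 samples. Within the groups it was -0.12 over the 6 light-adapted and 0.62 over the 6 dark samples, each made of 3 pairs. In the light 4 of the 6 values of AT2G35390 lay under the limit. The r of -0.12 and of 0.06 therefore rest partly on background, and little can be read from them.

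The genes most like the ribokinase by r over 12 samples, among probes with 1 gene above the limit in at least 6 samples, were AT4G13550, AT1G06510, AT2G37510, AT4G31930 and AT3G15900, with r from 0.946 to 0.953. The median r over these 429 probes was 0.04. AT1G06510 and AT4G31930 were above the limit in none of the 6 samples from the light and in all 6 from the dark, so they met the requirement through the dark samples alone. AT2G37510, an RNA-binding protein gene, was above the limit in all 12 samples, at 0.498 ± 0.0367 (SD, n = 3) under light and 0.883 ± 0.0892 after darkness. AT3G15900 was too, with 0.652 ± 0.128 and 1.61 ± 0.133.

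The genes most like the PRPP synthetase were AT2G37510, AT5G64150, AT4G31930, AT4G00590 and AT1G16080, with r from 0.918 to 0.961 and a median over the 429 probes of 0.07. AT2G37510 and AT4G31930 thus stood in both lists. No light-adapted sample exceeded the limit for AT4G31930, 2 of 6 did for AT5G64150 and for AT1G16080, and 4 of 6 for AT4G00590, so the likeness of these genes rests wholly or partly on light values near background. By deviations from the group means the order was different. There AT4G08940, AT3G27110 and AT1G18290 came first of 429 probes for the ribokinase, with r of 0.920, 0.910 and 0.883. AT3G27110 exceeded the limit in 2 light-adapted and 5 dark samples. Its light-adapted sample 6 read 0.452, where the light-adapted median was 0.0631. AT5G14910, AT5G47890 and AT4G33540 came first for the PRPP synthetase, with r of 0.828, 0.787 and 0.765. These r rest partly on background, since 4 light-adapted values of AT2G35390 lay under the limit. AT5G47890 encodes a subunit of mitochondrial complex I. Log2 differences of these 6 genes lay between -0.48 and 0.60, and limma called none of them.

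**Figure D4:**
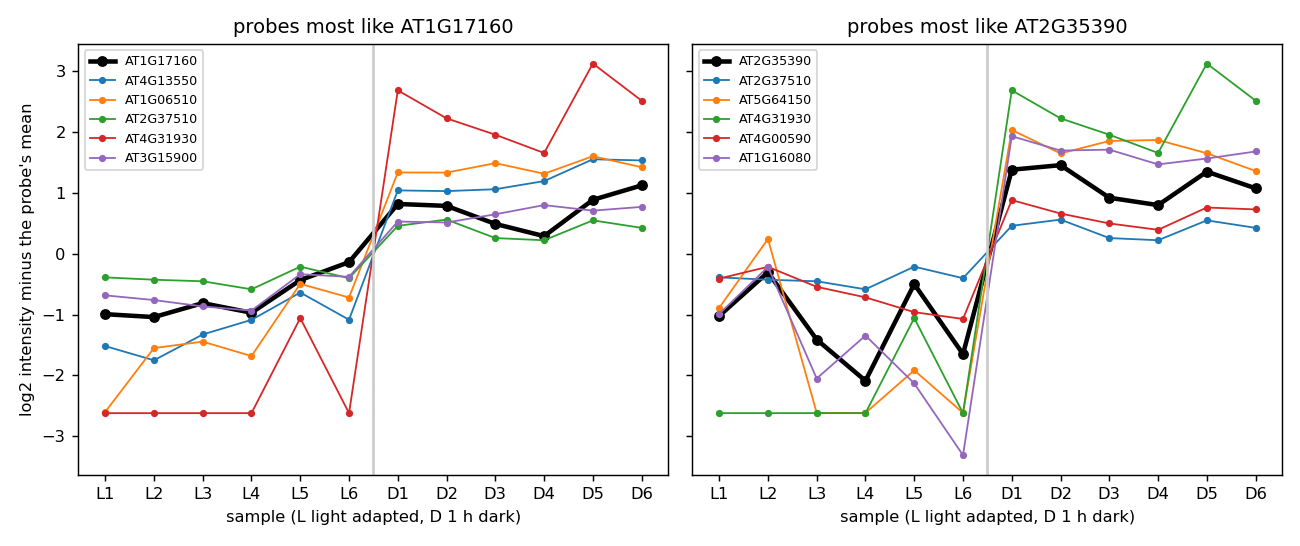
Log2 intensity minus the probe's own mean in each sample for the ribokinase (left, black) and the PRPP synthetase (right, black) with the 5 genes of highest r to each. All lines step up between L6 and D1, and AT4G31930 sits at the floor in light-adapted samples 1 to 4 and 6.

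The probes listed next to these genes were compared, since the position of a probe on the array is not given. Of the probes whose IDs are 1 or 6 away, 3 existed for AT1G17160 and 4 for AT2G35390, and limma called none of the 7. Around the ribokinase the log2 differences were -0.40, -1.17 and 0.46. Around the PRPP synthetase all 4 were positive, at 0.95, 0.38, 0.90 and 1.89. The first of these is THIC, which makes the pyrimidine part of thiamin, at 0.203 ± 0.0101 (SD, n = 3) under light and 0.400 ± 0.0960 after darkness. AT4G31930, among the genes most like AT2G35390, also has a probe nearby, with ID 2396 against 2391, outside the distances compared. Its log2 difference was 4.72 and limma called it, though no light-adapted sample exceeded the limit. After subtraction of a running median over 51 probe IDs, the log2 difference was 2.12 for AT2G35390 and 1.93 for AT1G17160. Whether neighbouring probes have a part in the AT2G35390 value was not tested further.

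Both differences kept their sign under all 29 alternatives that were run for each. That adds little, because the genes were picked on this contrast and their groups did not overlap. Without normalization the log2 difference was 1.22 for AT1G17160 and 2.15 for AT2G35390. With samples or pairs left out it ran from 1.32 to 1.68 for the ribokinase and from 1.98 to 2.62 for the PRPP synthetase.

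**Figure D5:**
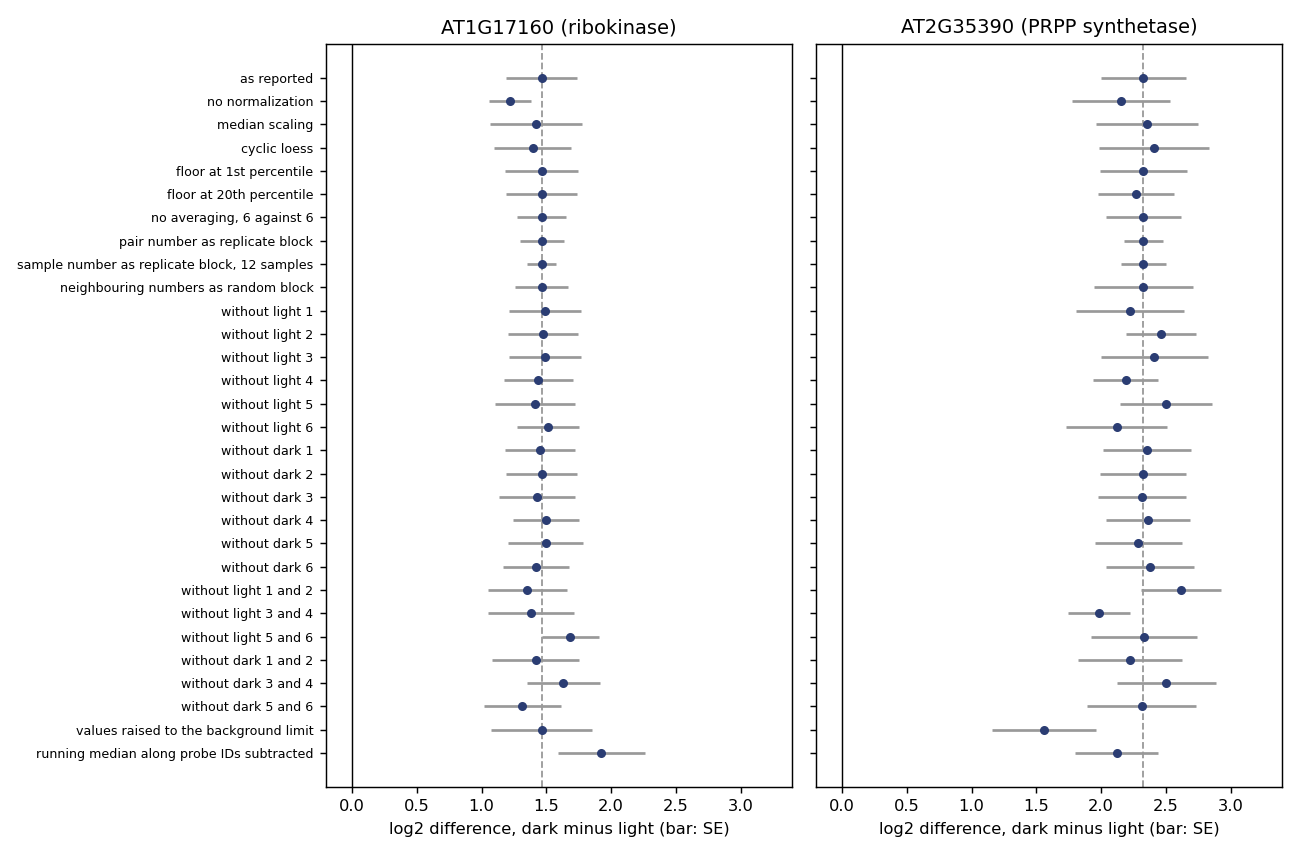
Log2 difference, dark minus light adapted, of the ribokinase (left) and the PRPP synthetase (right) as reported and under 29 alternatives; points are estimates, bars the SE, and dashed lines the reported values of 1.46 and 2.33. All points lie to the right of 0, and the lowest for AT2G35390, 1.56, comes with values raised to the background limit.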

How the data were processed

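The deposited values are linear array intensities with a common upper end of 100, so the authors had scaled each sample before deposit, as the values show. Which scanner, background correction and normalization they used is not given in the sources used here. Arrays were quantile normalised, set to a floor of 0.0116 (the 5th percentile of positive values as deposited) and put on the log2 scale. Neighbouring sample numbers were averaged because they resembled each other most within each group, as an earlier treatment of these data had also done. limma 3.58.1 in R 4.3.3 was fitted to all 3439 probes (3 against 3, Benjamini-Hochberg over all probes, threshold 0.05), and the procedure was tested on simulated data. Figures were drawn with matplotlib 3.10.9.

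The genes and lists were chosen with earlier results of these data known. Named were the 2 genes, every measured list gene, the 5 genes most alike by level and the 3 by deviation, and probes with IDs 1 or 6 away. The probes that carry several genes, among them those of AT1G36280, AT4G18440, PYRB, OTC and the fructokinases, were named after their values were seen. Gene names came from a platform annotation and were matched by gene ID to RefSeq (TAIR10.1), with 690 of 692 single-gene probes matched. Deviations of same-numbered averaged pairs correlated at 0.121, 0.147 and 0.208 across probes, so numbers were taken to pair samples on the evidence of the values, with no such statement in the labels. The reported fit has no pair term. Since separate plants are not stated, the spread behind each p-value may be technical, and the number of arrays limits the precision.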

Additional observations from a re-analysis of the deposited data

Results flagged for a closer look

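In the 16 groups of 6 samples formed by the 2 genes and the 6 measured list genes, 1 sample stood far from the others. The usual chance rate of about 1 in 20 such groups does not apply to values at 0 or to paired samples. Light-adapted sample 2 read 0.00632 for AT5G44520 on the normalised scale, while the other 5 light-adapted samples read 0, and all 6 values lay under the background limit. With the others at 0, any reading above 0 would have been flagged. The groups of AT1G12230 read 0 throughout and could not be flagged.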

How the results depend on the processing

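The background limit and the running median along probe IDs were chosen after seeing the data. For each of the 2 genes, 28 of 29 alternatives stayed within 1 SD between replicates of the reported log2 difference. The exceptions were 1.93 for AT1G17160 with the running median subtracted and 1.56 for AT2G35390 with values raised to the background limit. Over alternatives that left out samples the range was 1.32 to 1.68 for AT1G17160 and 1.98 to 2.62 for AT2G35390. Dropping the averaging or adding pairs, sample numbers or random blocks left both estimates as they were, since the design is balanced. So did the floor at the 1st percentile and, for AT1G17160 only, the floor at the 20th percentile and the background limit. These alternatives are counted among the 28 although they could not move the estimate.

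The number of probes called by limma over the array, 262 with 55.7% higher, fell to 0 with pairs as a replicate block, where 797 had an unadjusted p under 0.05 and the lowest adjusted p in limma was 0.0629. That fit has fewer residual degrees of freedom than the reported one. The number became 814 without averaging and 781 with single sample numbers as a replicate block, fits that count partners as separate replicates. With neighbouring numbers as random blocks it was 584. It was 155 without normalization (34.8% higher) and 134 with values raised to the background limit (41.0% higher), and the cause was not tested. Leaving out samples gave 13 to 273, with 13 (30.8% higher) without dark samples 1 and 2, 97 without 3 and 4 and 63 without 5 and 6. The number of list genes called, 0, became 2 (AT2G44530 and AT1G50510) without averaging, with single sample numbers as a replicate block and with random blocks. It was 0 to 1 when samples were left out, and AT2G44530 passed when light-adapted sample 1, light-adapted sample 5 or dark sample 4 was missing (limma adjusted p = 0.0451, 0.0243 and 0.0395). Signal near background limits the light-adapted values of AT2G35390.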
